A study of Solanum lycopersicum with 4 samples.

Results

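RNA-seq libraries from the first true leaf pair of tomato (Solanum lycopersicum, cultivar Moneymaker) were compared after 24 h at 10 °C and at 0 h, which are 2 of the 4 libraries of a cold time course that also has 3 h and 48 h. The libraries were taken by the times in their titles, 24h_10C and 0h_10C, with 1 library a side. Both times nominally fall at the same hour of the day, though the harvest hour is not stated. The 3 h library nominally falls at another hour, so for its levels hour of day and time in the cold cannot be told apart. The labels' protocols describe 3-week-old seedlings grown at 25 °C with a light level of 100 µmol m-2 s-1 and then chilled in dimmer light, 40 µmol m-2 s-1, with 12 h of light a day in both phases. The 24 h leaves had therefore been colder and dimmer than the growth conditions, and temperature and light cannot be told apart. Although the title of the 0 h library also names 10 °C, its exposure is labelled 0 h, and the conditions at that harvest are not otherwise stated. How many plants went into a library is not given in the sources used here, and no time has a replicate. The comparison is therefore between these libraries, by size of difference and counting error, with no p-value.

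Tomato is a plant of warm origin whose leaves suffer chilling injury in the cold without freezing. In chilled leaves the dark reactions of photosynthesis slow more than light capture does, so absorbed light can exceed what the leaf uses, and carotenoids of the xanthophyll cycle take part in shedding that excess as heat. Cold also stiffens membranes, whose fluidity depends on fatty acids and sterols, and cell surface receptor kinases tie hormone, growth and defence signals to the plasma membrane.

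The 24 h library held 35.7 M unique reads (M, 1000000 reads) over 24233 genes and the 0 h library 38.5 M over 24225 genes. Levels are in CPM, counts per 1000000 reads of a library scaled with TMM (trimmed mean of M values), and ratios are log2 of the 24 h level over the 0 h level with a pseudocount of 5 reads (0.135 CPM). Of 26219 genes listed in any file, 13840 were listed in all 4 and averaged at least 5 CPM, and these were compared. For single genes, folds leave the pseudocount out, and the bracketed ranges are exact Clopper-Pearson intervals (95%), which cover counting error only.

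After 24 h, 300 genes (2.17% of those compared) exceeded their 0 h level by 4-fold or more, and 193 (1.39%) were lower by as much, 3.56% in all. Differences of 2-fold or more were found for 17.9% of the genes, 9.65% in the higher direction and 8.28% in the lower. Without regard to size, 51.4% lay above their 0 h level and 48.6% below it. Within 1.5-fold of the 0 h level lay 8436 genes, 61% of those compared, and the ratios had a standard deviation across genes of 0.86. Large differences were more often higher than lower. Past 8-fold were 67 higher genes (0.484%) and 48 lower ones (0.347%), and past 16-fold 25 higher (0.181%) and 5 lower (0.0361%). Past 32-fold were 10 higher genes (0.0723%) and 1 lower (0.00723%). The split depends on scaling, because TMM lowers ratios by about 0.18 relative to plain library totals, and by less where a gene has few reads. Under plain totals 383 genes passed 4-fold in the higher direction and 148 in the lower. The median of all genes was then 0.20 instead of 0.02. In bulk leaf RNA, fewer cells of a type and less RNA per cell cannot be told apart.

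**Figure D1:**
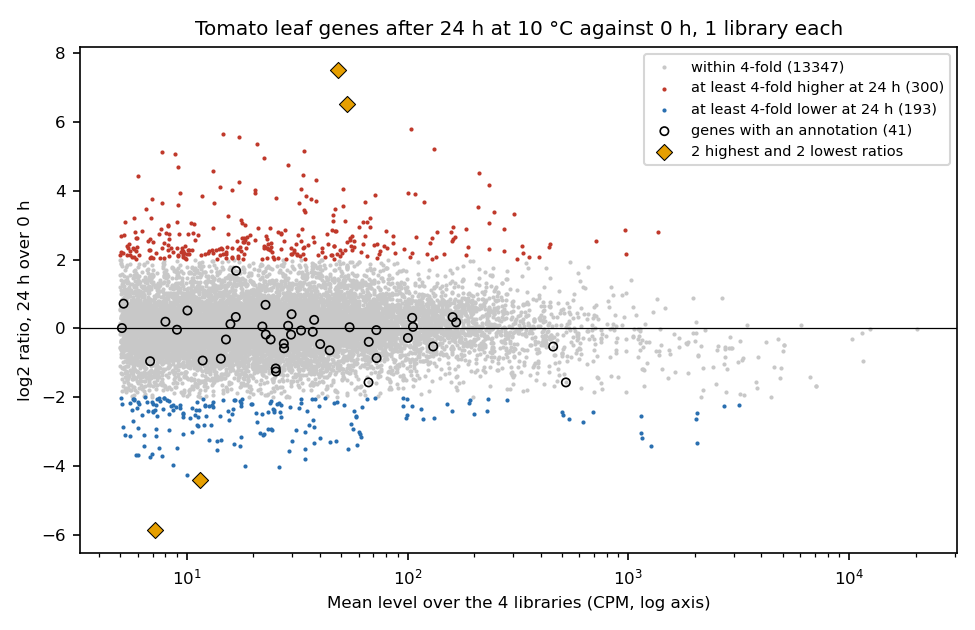
Each point is 1 of 13840 genes, with its mean level over the 4 libraries (CPM, log axis) and its log2 ratio at 24 h over 0 h. The 300 genes past 4-fold higher and the 193 past 4-fold lower occur over most of the range of levels, and the 41 annotated genes, shown as open circles, lie within 4-fold.

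The genes at the ends of the distribution carry no name in the sources used here and are given by identifier. Solyc03g117860.2.1 on chromosome 3 had 3969 reads at 24 h, against 16 reads at 0 h, a ratio of 236-fold (145 to 413). Its levels were 0.44 CPM at 0 h, 1.70 CPM at 3 h, 104 CPM at 24 h and 87.9 CPM at 48 h, so both later libraries were far above both earlier ones. The next in order, Solyc08g006470.2.1 on chromosome 8, had 6435 reads at 24 h and 62 at 0 h, 98.7-fold higher (76.9 to 129). Its course was 1.72 CPM at 0 h, 5.03 CPM at 3 h, 169 CPM at 24 h and 36.0 CPM at 48 h, with the 24 h library well above the other 3.

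Solyc10g008270.2.1 on chromosome 10 had the lowest ratio, with 1 read at 24 h and 334 at 0 h, which gives a ratio of 351-fold lower with an interval of 62.6 to 13913. Its levels were 9.24 CPM at 0 h, 19.2 CPM at 3 h, 0.026 CPM at 24 h and 0.19 CPM at 48 h. Solyc03g006490.2.1 on chromosome 3 came next, with 43 reads at 24 h and 950 at 0 h, 23.2-fold lower (17.1 to 32.3). With a pseudocount of 25 reads the order changed, with log2 ratios of -3.82 for Solyc10g008270.2.1 and -3.90 for Solyc03g006490.2.1. Levels of Solyc03g006490.2.1 were 26.3 CPM at 0 h, 17.1 CPM at 3 h, 1.13 CPM at 24 h and 1.58 CPM at 48 h, so the 2 later libraries were the low ones. Reads covered 59.5% of its length at 24 h and 97.3% at 0 h.

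The genes past 4-fold at 24 h were also set beside the other libraries. In the 300 higher genes the median level was 5.77 CPM at 0 h, 10.0 CPM at 3 h, 39.2 CPM at 24 h and 30.8 CPM at 48 h. In the 193 lower genes it was 31.9 CPM at 0 h, 26.3 CPM at 3 h, 5.34 CPM at 24 h and 6.14 CPM at 48 h. Each group had its outermost medians at 24 h and at 0 h, the libraries by whose ratio it was chosen to be extreme. The 48 h median lay next to that at 24 h, and the 3 h median next to that at 0 h.

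Functions could be read for a small set of genes only. The deposited 3 h file, and for 4 genes also the 24 h file, hold leftover annotation text in unnamed fields of 73 rows, which names the database protein most like the gene and in some rows is cut short. For 61 of these genes the text gives a usable name, and 41 of the 61 passed the filter on low levels. In 6 cases the named protein is a tomato RefSeq protein, and its gene lies on the chromosome that the identifier gives in 6 of 6. A name of this kind says which protein matched best and not that the function was shown, and the set is mostly cytochrome P450 enzymes and receptor kinases, so it does not stand for the leaf as a whole. Markers that could check the labelled leaf tissue are not among these names.

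None of the 41 annotated genes was 4-fold different at 24 h, beside 3.56% of all genes compared, a share that would make few of 41. At least 2-fold higher was 1 gene and at least 2-fold lower were 4, beside the 9.65% and 8.28% of all genes compared, and 29 lay within 1.5-fold. Their median log2 ratio was -0.10, against 0.02 for all genes. Above their 0 h level were 17 of the 41, and 24 were below it. With plain library totals 22 lay above and 19 below, with a median of 0.09, so the balance between directions is not firm. Under that scaling 3 rather than 4 were at least 2-fold lower, since the sterol 22-desaturase had -0.98.

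**Figure D2:**
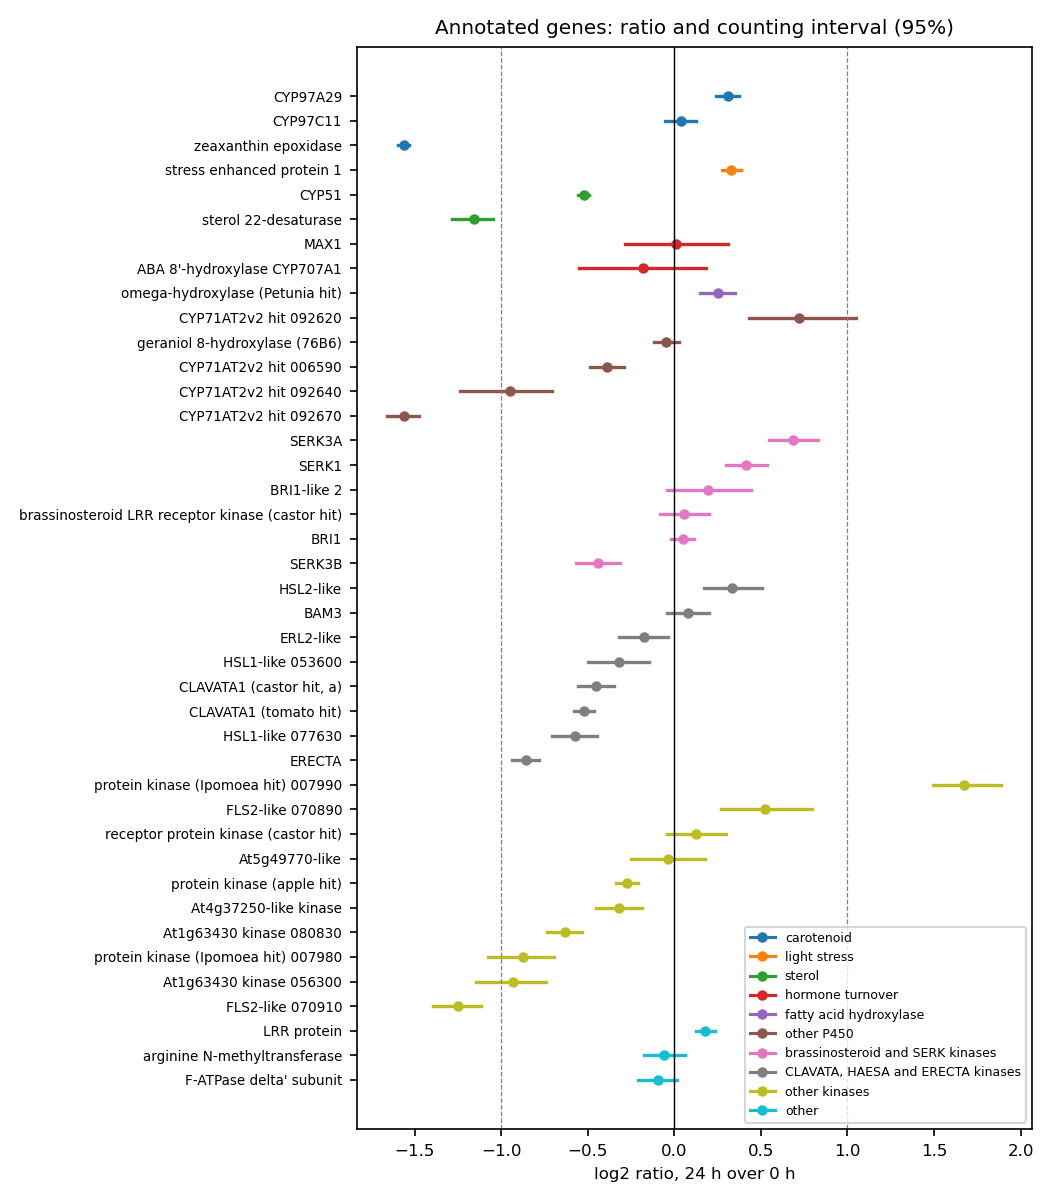
Points give the log2 ratio at 24 h over 0 h of the 41 annotated genes that passed the filter and lines the counting interval (95%), coloured by group, with dashed lines at 2-fold. Zeaxanthin epoxidase at -1.56 and a protein kinase at 1.67 mark the ends of the set.

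Zeaxanthin epoxidase, the enzyme that turns zeaxanthin back into violaxanthin and so closes the xanthophyll cycle, had the lowest log2 ratio of the annotated genes that passed the filter, level to 2 decimals with a CYP71AT2v2 match described below. Its gene (Solyc02g090890.2.1, chromosome 2) had 9999 reads at 24 h, against 28140 at 0 h, and was 2.96-fold lower (2.89 to 3.03). Levels were 779 CPM at 0 h, 750 CPM at 3 h, 263 CPM at 24 h and 292 CPM at 48 h, with the 2 earlier libraries close to each other and the 2 later ones low.

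The other carotenoid genes did not share that shift. CYP97A29 and CYP97C11 encode cytochrome P450 hydroxylases that act on carotene rings on the way to lutein. CYP97A29 (Solyc04g051190.2.1) had 114 CPM at 24 h and 91.8 CPM at 0 h, 1.24-fold higher (1.18 to 1.30), and 103 CPM at 3 h and 111 CPM at 48 h. CYP97C11 (Solyc10g083790.1.1) had 53.7 CPM at 24 h and 52.4 CPM at 0 h, a ratio of 1.03-fold (0.96 to 1.09). Over the 4 libraries it kept between 52.4 and 58.6 CPM. Stress enhanced protein 1, a chloroplast membrane protein of the light-harvesting superfamily known in Arabidopsis to be induced by light stress, was matched by Solyc01g107660.2.1 with 167 CPM at 24 h and 133 CPM at 0 h, 1.26-fold higher (1.21 to 1.30). That gene had 155 CPM at 3 h and 185 CPM at 48 h, so all cold libraries were above 0 h.

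Per kilobase of gene length, which allows levels of different genes to be compared, zeaxanthin epoxidase had 104 CPM per kilobase at 24 h and 308 at 0 h. Among the annotated genes only, at 24 h it came after the LRR protein Solyc10g081190.1.1 with 250, stress enhanced protein 1 with 203 and the sterol demethylase CYP51 with 192. At 0 h these had 221, 161 and 276 CPM per kilobase, all below zeaxanthin epoxidase.

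Both annotated sterol genes were lower at 24 h. Obtusifoliol 14alpha-demethylase (CYP51, Solyc01g008110.2.1) removes a methyl group early in plant sterol synthesis, and it had 343 CPM at 24 h and 493 CPM at 0 h, 1.44-fold lower (1.41 to 1.47). It had 464 CPM at 3 h and 525 CPM at 48 h, so the 24 h library was the lowest of the 4. Sterol 22-desaturase (RefSeq symbol CYP710A11, Solyc02g070580.1.1) makes stigmasterol from sitosterol in the plant membrane. At 24 h this gene had 844 reads (22.2 CPM), against 1801 reads (49.8 CPM) at 0 h, 2.24-fold lower (2.07 to 2.44). Its lowest level was the 10.7 CPM at 3 h, with 18.3 CPM at 48 h, and so every cold library lay below 0 h.

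The hormone turnover genes that passed the filter differed between 24 h and 0 h by less than counting error. The ABA 8'-hydroxylase CYP707A1, which inactivates the stress hormone abscisic acid, is matched by Solyc08g005610.2.1, with 122 reads (3.21 CPM) at 24 h, against 132 reads (3.65 CPM) at 0 h. The 24 h level was 0.88 of the 0 h level, and its interval, 0.68 to 1.13, spans 1. The 3 h library stood apart with 3460 reads (107 CPM), through which alone the gene passed the filter, and the 48 h library had 4.96 CPM. A second ABA 8'-hydroxylase, Solyc08g075320.2.1, had 9 reads at 24 h and none at 0 h, then 107 reads at 48 h, and did not pass the filter. MAX1, a cytochrome P450 of strigolactone synthesis, is matched by Solyc08g062950.2.1, with 5.08 CPM at 24 h and 5.04 CPM at 0 h, 1.01-fold (0.82 to 1.24).

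**Figure D3:**
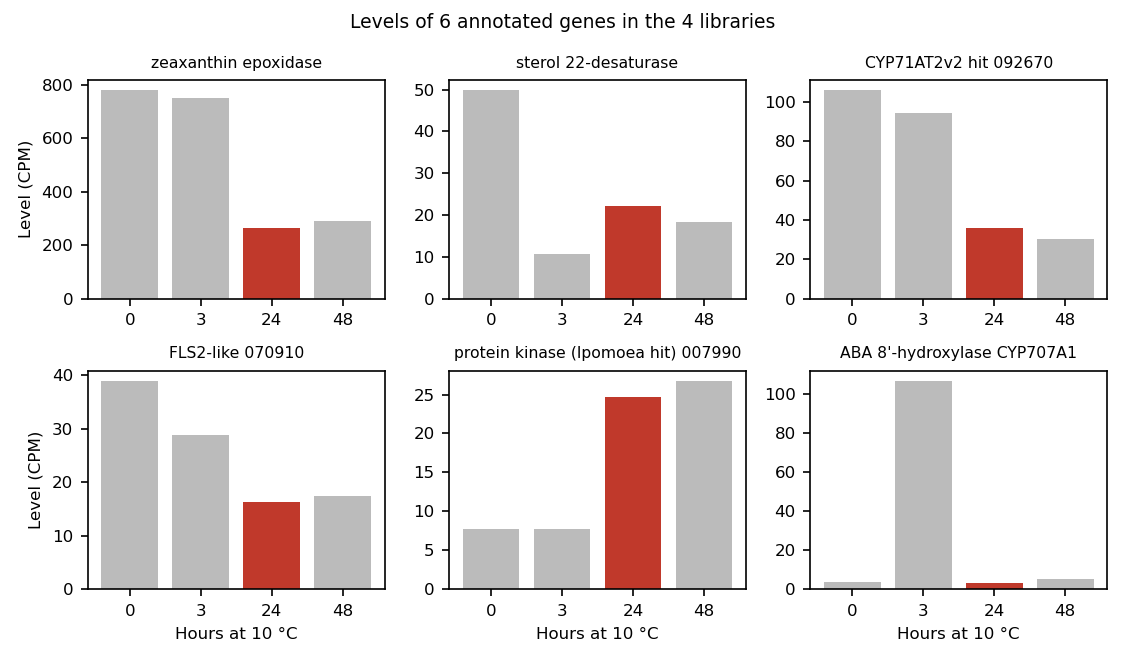
Bars give the level (CPM) of 6 annotated genes at 0, 3, 24 and 48 h, 1 library each, with 24 h in red. Zeaxanthin epoxidase, a CYP71AT2v2 match (Solyc09g092670.2.1) and an FLS2-like gene (Solyc02g070910.1.1) were lower at 24 and 48 h, the kinase Solyc01g007990.2.1 was higher there, and CYP707A1 was high at 3 h only among the 4 libraries.

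Cytochrome P450 genes matched by the same tobacco protein, CYP71AT2v2, differed widely. The CYP71 family makes many specialised metabolites, and the product of these members is not known from the sources used here. Of 6 such genes, 5 lie close together on chromosome 9, and 2 of those had at most 11 reads in any library and did not pass the filter. Solyc09g092670.2.1 had 35.7 CPM at 24 h and 106 CPM at 0 h, 2.96-fold lower (2.79 to 3.16). Its neighbour Solyc09g092640.2.1 had 182 reads at 24 h and 339 at 0 h, 1.96-fold lower (1.63 to 2.36), and Solyc09g092620.2.1 had 244 reads at 24 h and 139 at 0 h, 1.67-fold higher (1.35 to 2.07). The sixth, Solyc11g006590.1.1 on chromosome 11, had 39.6 CPM at 24 h and 51.8 CPM at 0 h, 1.31-fold lower (1.22 to 1.40), while its 3 h level was 129 CPM. Neighbouring genes of a family can share reads, so the values of single members are uncertain.

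Over all 26 annotated P450 genes, 12 passed the filter, with 5 above and 7 below 0 h, beside 51.4% and 48.6% of all genes compared. Their median log2 ratio was -0.11, against 0.02 for all genes. Plain library totals gave 6 above, 6 below and a median of 0.06. A geraniol 8-hydroxylase match, Solyc02g065220.2.1, had 81.3 CPM at 24 h and 84.0 CPM at 0 h, with an interval of 0.92 to 1.02 around a fold of 0.97. Solyc08g081220.1.1, whose shortened text names an acid omega-hydroxylase of Petunia, had 46.8 CPM at 24 h and 39.4 CPM at 0 h, 1.19-fold higher (1.11 to 1.28). A match to cytochrome P450 94A1, Solyc06g074420.1.1, did not pass the filter, with 8 reads at 24 h and 58 at 0 h.

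Of the 30 annotated kinases, 24 passed the filter. Above their 0 h level were 10 and below it 14, beside 51.4% and 48.6% of all genes compared, and plain library totals gave 12 and 12. Their median log2 ratio was -0.23, and 1 lay past 2-fold in each direction, beside the 9.65% and 8.28% of all genes. The brassinosteroid and SERK group had 5 of 6 members above 0 h, with a median of 0.13. The counting interval, however, lay above equality for 2 members and below it for 1, beside 5958 and 5483 of the 13840 genes compared. The group of CLAVATA, HAESA and ERECTA relatives had 2 of 8 above, or 3 of 8 with plain library totals, and a median of -0.39. Here the interval lay above equality for 1 member and below it for 6. These groups are small and were formed with the values known, so the medians are descriptive.

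BRI1, the brassinosteroid receptor (Solyc04g051510.1.1), had 95.8 CPM at 24 h and 92.8 CPM at 0 h, with a fold of 1.03 and an interval of 0.99 to 1.08. Its level at 3 h was 139 CPM and at 48 h 95.7 CPM. With plain library totals its log2 ratio at 24 h was 0.23, outside its counting interval. The co-receptor kinases of the SERK family, which pair with BRI1 and with immune receptors, differed in direction. SERK3A (Solyc10g047140.1.1) had 1094 reads (28.8 CPM) at 24 h, against 645 reads (17.8 CPM) at 0 h, 1.61-fold higher (1.46 to 1.78). SERK1 (Solyc04g072570.2.1) had 35.6 CPM at 24 h and 26.6 CPM at 0 h, 1.33-fold higher (1.23 to 1.45). SERK3B (Solyc01g104970.2.1) was the member below 0 h, with 890 reads (23.4 CPM) at 24 h, against 1150 reads (31.8 CPM) at 0 h, 1.36-fold lower (1.24 to 1.48).

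Among the CLAVATA, HAESA and ERECTA relatives that passed the filter, the ERECTA match had the lowest ratio. ERECTA, which in Arabidopsis shapes organ growth and stomatal patterning, is matched by Solyc08g061560.2.1, with 56.3 CPM at 24 h and 102 CPM at 0 h, 1.81-fold lower (1.72 to 1.91). Levels of 84.0 CPM at 3 h and 46.9 CPM at 48 h put each later library below the one before it. CLAVATA1, a receptor of meristem peptides, is matched by Solyc02g091840.2.1, which had 117 CPM at 24 h and 168 CPM at 0 h, 1.44-fold lower (1.38 to 1.49). An HSL1-like kinase, Solyc02g077630.2.1, had 22.1 CPM at 24 h and 32.9 CPM at 0 h, 1.49-fold lower (1.36 to 1.63). The HSL2-like kinase Solyc02g091860.2.1 was above 0 h instead, with 18.1 CPM at 24 h and 14.4 CPM at 0 h, 1.26-fold higher (1.12 to 1.42). Under the filter were a further CLAVATA1 match, Solyc09g064520.2.1, with 106 reads at 24 h and 252 at 0 h, 2.50-fold lower (1.98 to 3.17), and a further HSL1-like gene, Solyc03g006300.1.1, with 104 reads at 24 h and 207 at 0 h, 2.09-fold lower (1.65 to 2.68).

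Neighbouring kinase genes with like names were found on opposite sides of 0 h. Solyc01g007990.2.1 and Solyc01g007980.2.1, next to each other in identifier number on chromosome 1, both carry the name of a protein kinase of Ipomoea nil, which for Solyc01g007990.2.1 is all that is left of the text, so whether it is the same protein is not known. The first of them had 940 reads (24.7 CPM) at 24 h, against 277 reads (7.66 CPM) at 0 h, 3.23-fold higher (2.82 to 3.70), the highest ratio of the annotated genes that passed the filter. The other had 358 reads (9.42 CPM) at 24 h, against 629 reads (17.4 CPM) at 0 h, 1.85-fold lower (1.62 to 2.11).

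Both genes matched to the Arabidopsis kinase At1g63430 were lower at 24 h. Solyc12g056300.1.1 had 312 reads (8.21 CPM) at 24 h, against 570 reads (15.8 CPM) at 0 h, 1.92-fold lower (1.67 to 2.21). Solyc08g080830.2.1 had 34.3 CPM at 24 h and 53.2 CPM at 0 h, 1.55-fold lower (1.45 to 1.67). Within counting error of 0 h were a BRI1-like 2 kinase, Solyc04g008430.1.1, with 8.10 CPM at 24 h and 7.06 CPM at 0 h, and a receptor kinase matched in castor bean, Solyc11g044940.1.1, with 15.8 CPM at 24 h and 14.5 CPM at 0 h. With plain library totals their log2 ratios were 0.37 and 0.31, the latter outside its counting interval.

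The FLS2-like kinases, named after the Arabidopsis receptor of bacterial flagellin, lie on chromosome 2. Solyc02g070910.1.1 had 619 reads (16.3 CPM) at 24 h, against 1405 reads (38.9 CPM) at 0 h, 2.39-fold lower (2.17 to 2.63). Solyc02g070890.2.1 had 307 reads (8.08 CPM) at 24 h, against 202 reads (5.59 CPM) at 0 h, 1.45-fold higher (1.21 to 1.73), and its highest level was the 20.8 CPM at 3 h.

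The FLS2-like gene that was lower is the first of the longest row of neighbouring genes past 2-fold in the same direction. Neighbours are taken in identifier order among the genes compared. In this row on chromosome 2, 9 genes were each at least 2-fold lower at 24 h, and 7 of them, the second to the eighth, have the same listed length of 798 bases. Those 7 genes together had 252192 reads (0.706% of the library) at 24 h and 1049328 reads (2.72%) at 0 h. Their summed level was 29036 CPM at 0 h, 27944 CPM at 3 h, 6636 CPM at 24 h and 8529 CPM at 48 h, so the 2 later libraries were the low ones. The next member in the row, with 1157 bases, had 476 CPM at 24 h and 1272 CPM at 0 h, 2.67-fold lower (2.63 to 2.72).

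Members of equal length differed in size of shift, and their shared direction follows from the rule that formed the row. The smallest shift was that of the first of them, with 2563 CPM at 24 h and 6885 CPM at 0 h, 2.69-fold lower (2.67 to 2.71). The largest was that of the sixth, with 390 CPM at 24 h and 3894 CPM at 0 h, 9.98-fold lower (9.82 to 10.2). The 5 genes in the middle of the row were each over 4-fold lower, between 4.76-fold (4.71 to 4.82) and that value, and had log2 ratios of -3.14 to -2.07 with plain library totals. Genes of equal length side by side may be near-identical copies that share reads. The counts are of unique reads, and how reads that fit several copies were treated is unknown. If such reads were left out, the sum lacks them too, so the split between members and their sum are both uncertain.

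**Figure D4:**
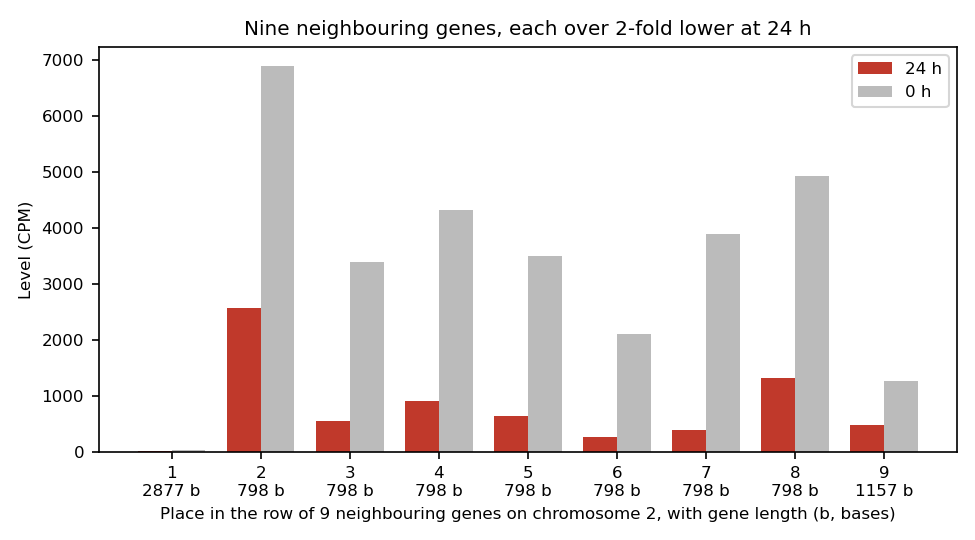
Bars give the level (CPM) at 24 h (red, left) and at 0 h (grey, right) of the 9 genes of the row on chromosome 2, in identifier order, with the listed gene length. Each gene is at least 2-fold lower at 24 h, and the 7 genes of 798 bases carry most of the level.

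A shorter row on chromosome 3 had 4 genes lower by 2-fold or more, 3 of them listed with 804 bases. These had 1156, 761 and 253 CPM at 24 h, against 5369, 2052 and 2299 CPM at 0 h, and were 4.64-fold (4.60 to 4.69), 2.70-fold (2.66 to 2.73) and 9.08-fold lower (8.89 to 9.28). The remaining gene of the row, of 543 bases, had 26.5 CPM at 24 h and 89.0 CPM at 0 h, 3.36-fold lower (3.13 to 3.61). For 2 of the genes of 804 bases reads covered 52.2% of the length in both libraries.

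At the 4-fold threshold, 55 of the 493 genes past it (3.56% of those compared) adjoined another that differed in the same direction. Of these, 27 were higher, in 13 rows, and 28 lower, in 12. Whether neighbours adjoined more often than these shares would give was not tested. The longest row of higher genes held 3 genes on chromosome 1, with 155, 42.7 and 11.4 CPM at 24 h and 24.5, 0.77 and 0.72 CPM at 0 h. They were 6.31-fold (5.88 to 6.78), 55.1-fold (37.9 to 83.1) and 15.8-fold higher (10.7 to 24.5). The share of genes at least 4-fold higher lay between 1.32% on chromosome 6 and 3.18% on chromosome 9 of the numbered chromosomes, and the share at least 4-fold lower between 0.568% on chromosome 11 and 1.73% on chromosome 4.

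Losses were concentrated in far fewer genes than gains. Summed over the 6731 genes below 0 h, the loss at 24 h was 282463 CPM, and the 50 largest losses made up 48.5% of it. The gain of the 7109 genes above 0 h was 157133 CPM, with 19.5% in the 50 largest gains. The sums need not balance, because TMM sets the typical gene and not the total as unchanged. Genes at least 4-fold lower carried 13.2% of the loss, and genes 2- to 4-fold lower carried 44.0%. Genes at least 4-fold higher carried 18.3% of the gain, while those above 0 h by less than 2-fold carried 54.4%.

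The 10 largest losses had a median log2 ratio of -1.67 and came from 7 chromosomes, and the lowest of these genes still had 1156 CPM at 24 h. The gene with the largest loss, on chromosome 6, had 3541 CPM at 24 h and 11270 CPM at 0 h. The gene with the largest gain, on chromosome 7, had 2806 CPM at 24 h and 402 CPM at 0 h, with 865 CPM at 3 h and 1354 CPM at 48 h. The row on chromosome 2 made up 8.22% of the summed loss and the row on chromosome 3 another 2.70%.

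**Figure D5:**
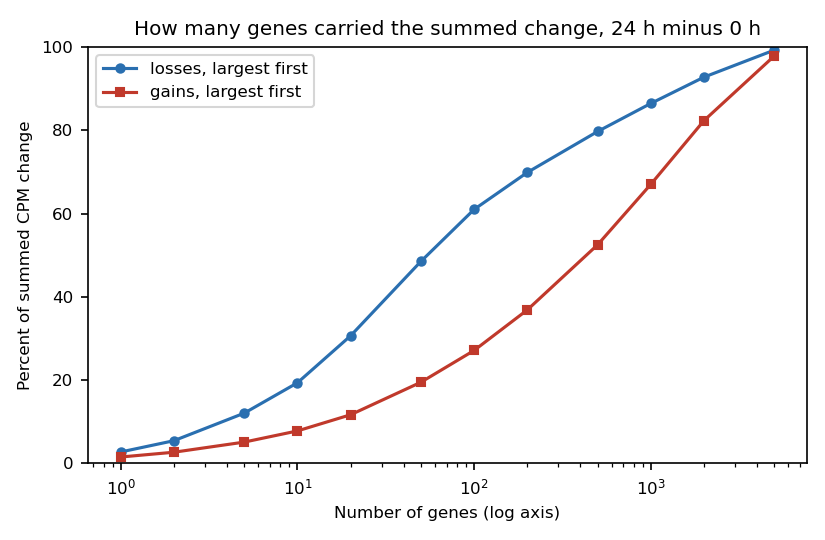
The lines give the percent of the summed CPM loss (blue) and gain (red) at 24 h against 0 h that is reached by the genes with the largest changes, by number of genes (log axis). The 50 largest losses reach 48.5% and the 50 largest gains 19.5%.

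The 24 h library was spread more evenly, apart from its single most abundant gene. That gene took 2.33% of the reads, against 2.07% for the most abundant gene at 0 h. The 100 most abundant genes at 24 h took 26.2% of the reads, against 36.5% for the 100 most abundant at 0 h. To reach 50% of the reads took 691 genes at 24 h and 340 at 0 h. Of the 50 leading genes of each library, 37 were shared. In 10 groups of equal size by mean level, the median log2 ratio lay between -0.06 and 0.11 with the most abundant group at 0.02. By gene length, the shortest group (up to 684 bases) had a median of 0.16 and the longest (from 2901 bases) a median of -0.02.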

How the data were processed

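Per the file headers, each deposited file lists genes with their unique read count, length, coverage percent and RPKM. Which aligner, build, annotation, strand setting or filter made them is not given in the sources used here. Counts were used as deposited, and the deposited coverage percent is quoted for a few genes. The authors' RPKM values were not used.

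Libraries were scaled by TMM (edgeR 4.0.16, R 4.3.3), with factors of 1.06 at 24 h and 0.94 at 0 h. The edgeR package served for scaling only, since 1 library a side allows no test. At 5 CPM, about 185 reads, equal counts have an interval of -0.30 to 0.30 in log2. Without molecular identifiers, reads are not independent molecules. Absent genes were taken as 0 reads, which allows up to 3.

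None of the 41476 genes of the RefSeq table (assembly SLM_r2.1) carries an identifier of the files, so names come from the leftover annotation text, and the functional gene lists could not be applied. Named were the 12 highest and 12 lowest annotated genes and the 2 highest and 2 lowest of all. The other annotated genes were added after their values were seen, to complete families. The comparison and the lists were chosen with earlier results of these data known. No sequences are shown, because no source used here pairs them with the identifiers. Chromosome and order were read from the identifiers.

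Tried as well were size factors from DESeq2 1.42.0, scaling by plain totals, TMM over the 2 libraries, other pseudocounts, filters and thresholds. The computation was tested on simulated data.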

Additional observations from a re-analysis of the deposited data

Results flagged for a closer look

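For 4 annotated genes, the 24 h level lay on one side of 0 h and the 3 h level on the other, with counting intervals that left out equality at each time. Both ratios share the single 0 h library, and the difference between the times was not tested. The 3 h library also nominally falls at another hour of the day than 0 h and 24 h. The CYP71AT2v2 match Solyc11g006590.1.1 had log2 ratios of -0.39 at 24 h and 1.31 at 3 h. The kinase Solyc01g007980.2.1 had -0.88 at 24 h and 0.31 at 3 h. The acid omega-hydroxylase match Solyc08g081220.1.1 had 0.25 at 24 h and -0.42 at 3 h. The ERL2-like kinase Solyc03g007050.2.1 had -0.18 at 24 h and 0.16 at 3 h, and its ratio at 24 h was 0.0054 with plain library totals.

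Genes missing from 1 of the 2 files entered no ratio. Without a read at 0 h, 172 genes had over 3 reads at 24 h, the number that a count of 0 allows, and 150 genes missing at 24 h had over 3 reads at 0 h. Counts of 50 reads or more occurred in 3 of the first and 2 of the second group. The highest, on chromosome 1, had 2 reads at 3 h, 444 at 24 h and 259 at 48 h. It was at least 140.7-fold higher at 24 h than the 3 reads a count of 0 allows at 0 h. In the other direction, a gene on chromosome 2 had 0 reads at 24 h and 159 at 0 h, at least 55.7-fold lower on the same limit, with 128 reads at 3 h and 1 at 48 h.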

How the results depend on the processing

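No paired analysis was possible because the comparison has 1 library a side, and no replicate could be left out. The numbers of genes 4-fold higher and lower stayed within 1.5 times of 300 and 193 with DESeq2 size factors, plain library totals, TMM over the 2 libraries, pseudocounts of 0.5 and 25 reads and a filter on the 2 libraries only. They were 522 and 386 without a filter on low counts, 163 and 90 at a minimum of 20 CPM, 1335 and 1146 at 2-fold, and 67 and 48 at 8-fold, which compare other genes or set other limits by construction. Plain library totals moved the medians of the most and least abundant groups to 0.21 and 0.10. Those of the shortest and longest genes moved to 0.35 and 0.16. These moves were near the shift of about 0.18 between the 2 scalings. At a minimum of 20 CPM the most abundant group, then a smaller set of genes, had a median of -0.090. Requiring 10 reads left 33 genes seen at 24 h and not at 0 h and 30 the other way. At 2-fold, 601 of the 2481 genes past that limit (17.9% of those compared) adjoined another in the same direction. For 45 single genes, 142 of 180 alternative ratios stayed within the counting interval with the same sign and 33 left it with the same sign. The other 5 changed sign, all with plain library totals, 4 of them for genes whose interval spans equality. The fifth was the ERL2-like kinase Solyc03g007050.2.1, at 0.0054. Leaving that gene out, 31 of the 45 genes left their interval with plain library totals. Fewer did with a pseudocount of 25 reads (4), DESeq2 size factors (1) and a pseudocount of 0.5 reads (0). The 50 largest losses held 47.9% to 53.6% of the summed loss and the 50 largest gains 18.5% to 19.4% of the summed gain under other scalings and without a filter, alternatives chosen after seeing the data.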
